A study of Mus musculus with 8 samples.

Results

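The interferon-inducible GTPases are 10 of the 27179 genes in the deposited liver RNA sequencing table. They comprise 4 guanylate-binding proteins (GBPs), *Gbp2*, *Gbp3*, *Gbp6* and *Gbp7*, and 6 immunity-related GTPases (IRGs), *Igtp*, *Irgm1*, *Irgm2*, *Iigp1*, *Ifi47* and *Tgtp1*. The genes were chosen by family name, with earlier results of these libraries already known, and were found in the table by their symbols. RNA came from the livers of adult male C57BL/6NHsd mice after a 6 h fast, 4 of them wild-type (V227) and 4 homozygous for the V227A substitution of PPARɑ (A227). PPARɑ is a nuclear receptor that controls fat metabolism in the fasted liver. The V227A line was made by adenine base editing of zygotes, and its colony descends from a heterozygous founder that was backcrossed to the same strain.

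GBPs and IRGs are GTP-binding proteins that cells make in response to interferons, above all interferon gamma, and that defend the inside of the cell against bacteria and parasites. Interferon gamma binds a receptor that activates the kinases JAK1 and JAK2. Their signal reaches the promoters of target genes through DNA elements named GAS and ISRE, and the interferon regulatory factors bind the ISRE. IRG effectors carry a lysine in their nucleotide-binding loop and coat the vacuoles of pathogens. IRGM regulators carry a methionine there and sit on the membranes of the cell, where they hold the effectors inactive. In liver they can be made by hepatocytes as well as by Kupffer cells and other immune cells.

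The level of each gene is the authors' average log2 CPM, that is, read counts scaled to a common library size (CPM) and averaged by their tool over all 8 libraries. This value joins both genotypes, so a level in V227A or in wild-type, a spread between mice and a difference between genotypes are not analysed here. In these whole-tissue libraries, fewer cells of a type and less RNA per cell cannot be told apart. The lowest value in the table, -3.78, is shared by 8242 genes without reads and corresponds, after normalisation by the authors, to an average library of about 27474000 reads. That library size allowed each level to be written as CPM and as estimated reads per library. The tissue label held, as the lowest of 8 hepatocyte markers, *Hnf4a*, stood at the percentile of 98.4 per length among genes with reads. Kupffer cell markers were readily seen, led by *Clec4f* at 33.2 CPM per kb. None of the 8 markers of T and NK cells reached more than 13.3 estimated reads per library.

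All 10 members were above the lowest value, as were 18937 of all 27179 genes. The levels of the members spanned a wide range, and the IRGs supplied most of the RNA of the group. The 6 IRGs summed to 294.3 CPM, or 93.9% of the total of the members, and the 4 GBPs to 19.0 CPM. *Iigp1*, which encodes the effector Irga6, had by far the highest level, with an average log2 CPM of 7.64, equal to 199.1 CPM or an estimated 5471 reads per library. It lay above 96.7% of the 18937 genes with reads. At the other end, *Tgtp1*, which encodes the effector Irgb6, had an average log2 CPM of 0.08, equal to 0.985 CPM or 27.1 estimated reads per library.

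**Figure D1:**
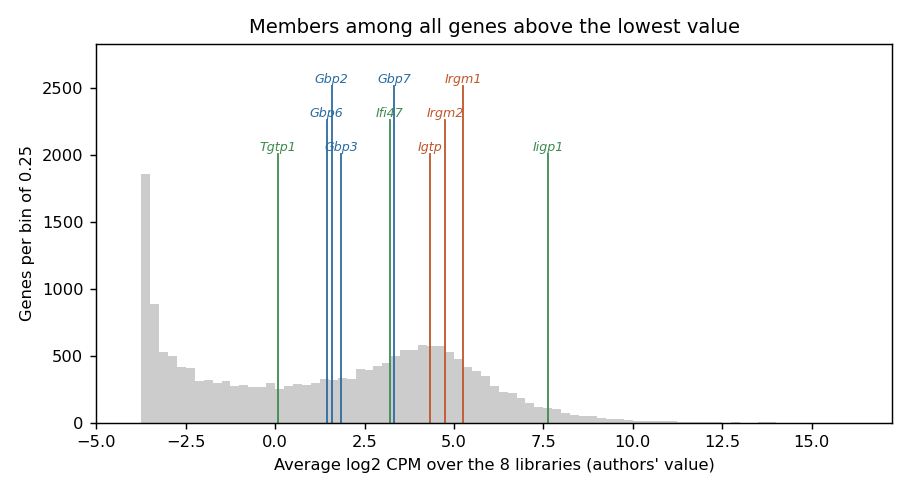
Histogram of the authors' average log2 CPM over the 8 libraries (x axis) for the 18937 genes above the lowest value, with the number of genes per bin on the y axis and a line for each member, coloured as GBP, IRGM regulator or IRG effector. *Iigp1* at 7.64 lies in the right tail, the 3 regulators between 4.32 and 5.26, and *Ifi47*, the GBPs and *Tgtp1* to their left.

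Levels of different genes are comparable only per length, so CPM was divided by the length of all annotated exons of each gene in kb (GENCODE vM21, GRCm38). On this scale the order ran from *Iigp1* at 34.2 CPM per kb to *Tgtp1* at 0.307 CPM per kb, a 111-fold range. Its low end is the single value of *Tgtp1*, which is treated below with its copy *Tgtp2*. *Iigp1* alone was 1.06 times as high as the other 9 members together, and 1.69 and 1.85 times as high with the longest transcript and the coding length. The median gene with reads stood at 1.07 CPM per kb, and *Iigp1* was 31.9 times higher.

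The 3 IRGM regulators came next and lay close together. *Igtp*, which encodes Irgm3, had 9.88 CPM per kb from 548.6 estimated reads per library. *Irgm2* had 7.32 CPM per kb from 741.7 estimated reads. *Irgm1*, whose protein binds to membranes of the Golgi and the endolysosomal system, had 6.56 CPM per kb from 1048 estimated reads. *Igtp* was 1.35 times *Irgm2*, *Irgm2* was 1.11 times *Irgm1*, and their order turned when another length was used. With the longest transcript *Irgm1* led with 9.95 CPM per kb and *Igtp* followed with 9.88. With the coding length the order was *Irgm1* with 31.1, *Irgm2* with 22.1 and *Igtp* with 15.7 CPM per kb. The ranking among the regulators therefore rests on the length chosen, and without values per library it was not tested.

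The effectors were the most unequal subgroup, since by single values they hold both ends of the order. The low end is *Tgtp1*, whose single value is uncertain because of its copy *Tgtp2*. *Ifi47*, which encodes Irgd, lay between *Iigp1* and *Tgtp1* with 3.69 CPM per kb from 250.4 estimated reads per library. It stood at the percentile of 69.0 among genes with reads, against 93.7 for *Iigp1* and 36.7 for *Tgtp1*.

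The GBPs lay around the median gene with reads, between the percentiles of 40.1 and 57.1 per kb. They were lower among genes with an average log2 CPM of at least 0. There, by level and not per length, *Gbp6* stood at the percentile of 14.1, *Gbp2* at 15.7, *Gbp3* at 18.5 and *Gbp7* at 38.4. *Gbp7* was the highest of them with 1.77 CPM per kb from 272.5 estimated reads per library. *Gbp2*, whose protein ends in a signal for lipid attachment, had 1.16 CPM per kb from 80.0 estimated reads, and *Gbp3* had 1.08 CPM per kb from 96.5. Those neighbours differed 1.08-fold and changed places with both other lengths. *Gbp6* was lowest with 0.444 CPM per kb from 72.6 estimated reads. The median regulator was 6.55 times the median GBP per kb of all exons, 8.003 times per longest transcript and 12.5 times per coding length. Of the 10 members, 5 kept the same place in the order under each of the 3 lengths, and these were *Iigp1*, *Ifi47*, *Gbp7*, *Gbp6* and *Tgtp1*.

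**Figure D2:**
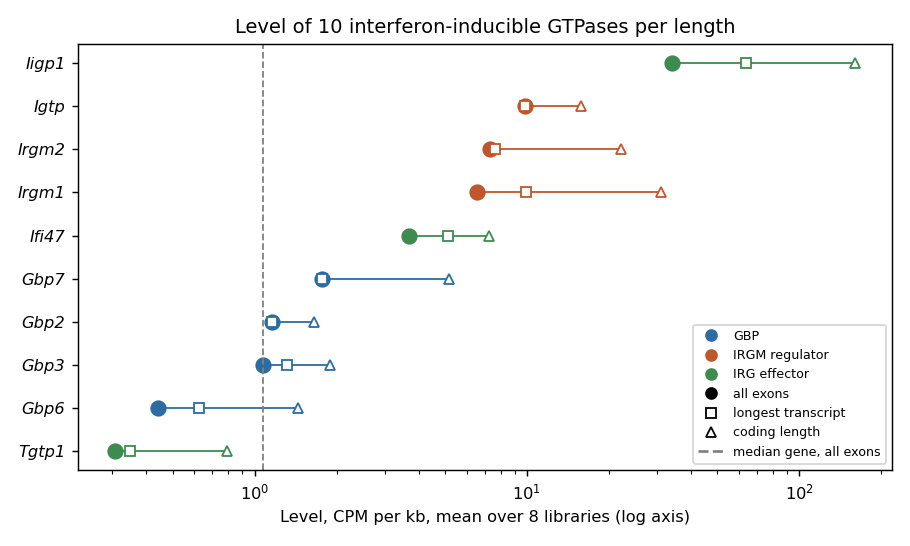
Level of each member in CPM per kb (x axis, log scale), as the mean over the 8 libraries, with the length taken as all exons (filled circles), the longest transcript (squares) or the coding sequence (triangles). *Iigp1* is highest and *Tgtp1* lowest with each length, the 3 regulators change places, and the dashed line marks the median gene at 1.07 for all exons.

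*Iigp1* lies on chromosome 18 of GRCm38, from 60376027 to 60392634 on the plus strand. Its nearest relative in the table, *Iigp1c* (named *Gm4951* in the annotation), lies on the same chromosome and had an average log2 CPM of 6.91, or 120.3 CPM from an estimated 3304 reads per library. Their proteins are 77.3% identical. The transcript of *Iigp1* shares 2.83% of its 50-base stretches with *Gm4951*. Per kb of all exons *Iigp1c* was higher (45.5 against 34.2 CPM per kb), and with the coding length *Iigp1* was higher (160.7 against 98.7). Per kb of all exons, no other gene among the members and the listed GBPs and IRGs exceeded the 9.88 of *Igtp*.

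The other members fall into clusters. On chromosome 3, *Gbp7* (142530342 to 142550149), *Gbp3* (142560026 to 142573209) and *Gbp2* (142620602 to 142638008) follow each other on the plus strand within 107.7 kb. *Gbp6* lies on chromosome 5 (105270702 to 105293698, minus strand). On chromosome 11, *Irgm1* (48861968 to 48871683, minus strand), *Tgtp1* (48985327 to 48994172, minus strand) and *Ifi47* (49076587 to 49096974, plus strand) lie within 235.0 kb. *Igtp* (58199556 to 58207591) and *Irgm2* (58199618 to 58222782) form a separate pair 9.10 Mb further on, both on the plus strand. Levels within the cluster were unequal, as *Irgm1* was 21.3 times the single value of *Tgtp1* per kb of all exons and 39.3 times per coding length.

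Some members have copies so similar that reads may have been shared, lost or split between them. *Tgtp1* and its neighbour *Tgtp2* encode proteins of 415 residues that are 100% identical. Of the 50-base stretches of the *Tgtp1* transcript, 89.4% also occur in *Tgtp2*. The table gives *Tgtp1* 0.985 CPM and *Tgtp2* 0.557 CPM, so the pair summed to 1.54 CPM. Per kb of all exons the pair summed to 0.497, above the 0.444 of *Gbp6* alone. On that length the lowest place of *Tgtp1* holds for its single value and not for the pair. The pair was not summed with the other lengths. *Gbp6* also has a copy, *Gbp10*, with 0.753 CPM per kb of all exons, which the 0.444 leaves out. *Gbp6* and *Gbp10* encode proteins that are 97.7% identical. *Gbp10* had 2.92 CPM beside 2.64 for *Gbp6*, and the pair summed to 5.56 CPM. In addition, 90.2% of the 50-base stretches of *Gbp6* occur in *Gm43302*, an annotated gene that holds 29.0% of the exon bases of *Gbp6*. The single values of *Tgtp1* and *Gbp6* are uncertain for this reason, since how the counting treated reads with several matches is not stated.

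For the other 8 members at most 12.8% of these stretches occur in another gene. That highest share was in *Gbp7*, of which 10.6% was shared with *Gm43802*, an overlapping pseudogene. *Igtp* shares 12.3% of its stretches with *Irgm2*, and 162 bases of exon belong to both genes in the annotation. *Irgm1* is nearly free of such overlap, with 0.814%.

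The families are distant from each other in sequence. Aligned over their whole length, GBP members were 48.0 to 71.0% identical, with the closest pair being *Gbp3* and *Gbp7*. IRG members were 26.4 to 49.5% identical, with a median of 29.4% over 15 pairs. The closest IRG members were *Igtp* and *Irgm2*, and the 3 regulators were 45.8 to 49.5% identical to each other. *Iigp1* and *Tgtp1* were 42.4% identical. Between the families the identity was 10.7 to 16.7%. The lysine form of the nucleotide-binding loop was found in all 4 GBPs and in *Iigp1*, *Ifi47* and *Tgtp1*, and the methionine form in *Igtp*, *Irgm1* and *Irgm2*, which is the textbook division. GBP proteins held 589 to 638 residues and IRG proteins 407 to 423. Of the 10 members, only *Gbp2* has a C-terminal CaaX sequence for lipid attachment in its longest reading frame.

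**Figure D3:**
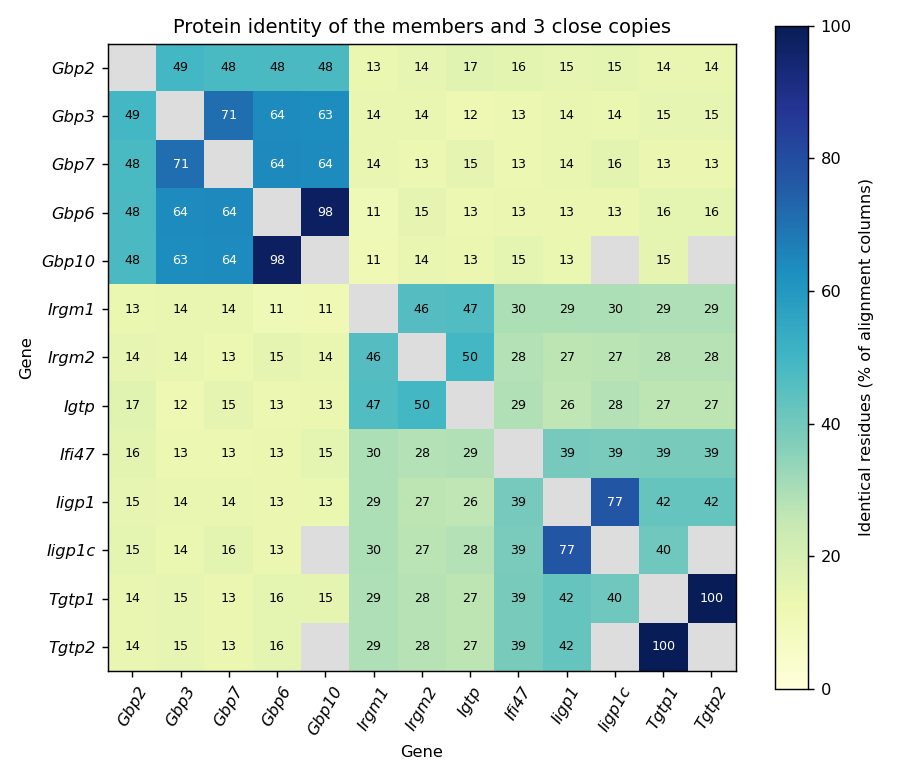
Percent of alignment columns with identical residues for each pair among the 10 members and 3 close copies, *Gbp10*, *Iigp1c* and *Tgtp2* (grey for a gene with itself and for pairs of copies that were not compared). GBPs and IRGs form separate blocks, the 3 regulators form a block inside the IRGs, and *Tgtp1* with *Tgtp2* (100%) and *Gbp6* with *Gbp10* (97.7%) stand out.

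The promoters were then compared, since the 10 genes are known for their response to interferon. RefSeq windows of 300 bases (250 before and 50 after the transcript start, GRCm38.p6) were used for 8 members, and *Gbp6* and *Iigp1* were not included. *Gbp6* had no window, and chromosome 18, where *Iigp1* lies, was left out of the member windows. The counts of motifs therefore do not cover *Iigp1*, the member with the highest level. The ISRE was searched as GAAA, any 2 bases and GAAA, and the GAS as TTC, any 3 bases and GAA, on both strands. *Gbp3* has a second window, which holds neither motif, so the 8 members have 9 windows. An ISRE was present in 7 of the 8 members, all but *Ifi47*. That is 7 of their 9 windows, against 3.44% of all 32851 windows. A GAS was present in 4 of the 8 members and 4 of the 9 windows, against 8.30% of all windows. The members with a GAS were *Gbp7*, *Igtp*, *Irgm2* and *Tgtp1*. Those 4 held both, as did 0.454% of all windows. Every motif of the members lay before the RefSeq transcript start. For *Irgm2* that start is at 58214977, inside the longer gene model given above. The motifs of *Irgm2*, *Gbp2*, *Irgm1* and *Tgtp1* lie inside the gene models given above, so they are upstream only of the RefSeq starts. For *Ifi47*, which has 5 annotated transcripts, the window lies at the outer end of the gene model. Starts further inside that model were not searched. Genes of a family share ancestry, so these windows are not independent of each other, and a match does not show that a factor binds.

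Among the members with both motifs, *Igtp*, *Irgm2* and *Tgtp1* have the GAS and the ISRE side by side with 2 bases between them. This joined element was noticed after the windows had been seen. It occurs in 5 of the 32851 windows, and all 5 belong to IRG genes of chromosome 11, the other 2 being *Tgtp2* and *Gm12185*. The sequences are shown because they let the shared element be read directly, with the GAS and then the ISRE in capitals, 30 bases before and 20 after, on the strand of the gene:

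Igtp: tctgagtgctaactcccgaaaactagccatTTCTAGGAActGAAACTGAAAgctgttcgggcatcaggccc
Irgm2: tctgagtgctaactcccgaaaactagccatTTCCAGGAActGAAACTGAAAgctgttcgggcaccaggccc
Tgtp1: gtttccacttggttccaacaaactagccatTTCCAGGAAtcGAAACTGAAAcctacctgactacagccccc
Tgtp2: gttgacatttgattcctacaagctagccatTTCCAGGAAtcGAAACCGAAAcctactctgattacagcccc
Gm12185: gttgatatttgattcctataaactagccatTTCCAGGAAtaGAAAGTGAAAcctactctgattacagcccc

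They lie at chr11:58199481-58199551 (*Igtp*, plus strand), chr11:58214872-58214942 (*Irgm2*, plus), chr11:48992294-48992364 (*Tgtp1*, minus), chr11:49064253-49064323 (*Tgtp2*, minus) and chr11:48927228-48927298 (*Gm12185*, minus). None of these bases falls in an annotated exon. The windows of *Igtp* and *Irgm2* match at 69 of 71 bases, and over the whole promoters these genes were 90.4% identical, the highest among pairs of the 8 members and *Tgtp2*. *Tgtp1* and *Irgm2* match at 43 of 71 bases and at 19 of the 21 bases of the element. Most bases of the element were fixed by the search. Only 3 inside the GAS, 2 inside the ISRE and the 2 between them were free to differ. The closer match within the element therefore follows in large part from the search. The element begins 45 bases before the start of *Igtp*, 75 before that of *Irgm2* and 88 before that of *Tgtp1*. Of the 3 members with this element, *Igtp* and *Irgm2* had levels of 9.88 and 7.32 CPM per kb and *Tgtp1* had 0.307, a value that is uncertain because of its copy *Tgtp2*.

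In the other members with an ISRE the motif stands alone or in other company. These windows are printed with the ISRE in capitals and 10 bases on either side, on the strand of the gene, because they show that 4 genes hold the motif close to the start without the joined element:

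Gbp7: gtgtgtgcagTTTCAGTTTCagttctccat
Gbp3: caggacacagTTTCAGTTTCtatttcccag
Gbp2: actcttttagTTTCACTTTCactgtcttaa
Irgm1: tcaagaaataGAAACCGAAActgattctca

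They lie at chr3:142530273-142530302 (*Gbp7*), chr3:142559989-142560018 (*Gbp3*), chr3:142620594-142620623 (*Gbp2*) and chr11:48871425-48871454 (*Irgm1*, minus strand). In the 3 GBPs the ISRE reads in the direction opposite to the gene, and in *Irgm1* in the same direction. *Gbp3* and *Irgm1* each hold a second ISRE that overlaps the one shown. *Gbp7* has 2 GAS motifs further from the start, beginning 106 and 87 bases before it. With a stricter ISRE, in which a C follows the second GAAA, 5 members kept the motif, *Gbp2*, *Gbp3*, *Gbp7*, *Irgm1* and *Tgtp1*, against 0.819% of all windows. *Igtp* and *Irgm2*, which hold the joined element, lost their ISRE under this form. With a stricter GAS, TTCC, any base and GGAA, 3 members kept the motif, *Gbp7*, *Irgm2* and *Tgtp1*, against 1.15% of all windows, and *Igtp* lost it.

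**Figure D4:**
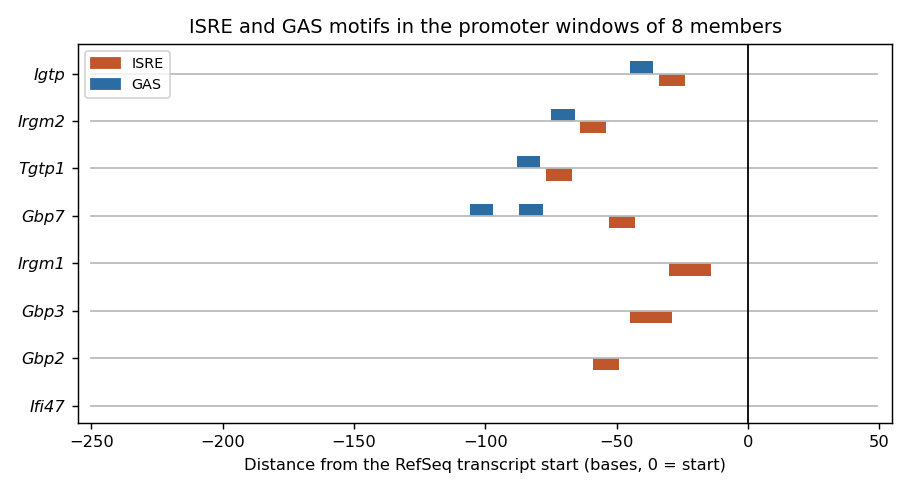
Positions of ISRE (orange) and GAS (blue) motifs in the promoter windows of 8 members, as distance in bases from the RefSeq transcript start (0). All motifs lie within 106 bases before the start, *Igtp*, *Irgm2* and *Tgtp1* show the adjacent pair, and *Ifi47* has none.

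The upstream genes of the pathway were described from the same table. *Ifng*, the gene of interferon gamma itself, was barely detected, with an estimated 0.621 reads per library, and *Ifnb1*, the gene of interferon beta, was at the lowest value. Both chains of the interferon gamma receptor were present at like levels, *Ifngr1* with 5.77 and *Ifngr2* with 5.65 CPM per kb. The type I receptor chains *Ifnar2* and *Ifnar1* had 24.6 and 7.11 CPM per kb. All 10 signalling genes described had reads, as did 18937 of all 27179 genes. Signalling genes ran from *Jak1* with 10.1 to *Socs1* with 0.0701 CPM per kb. *Irf1*, an early target and ISRE-binding factor, had 5.61 CPM per kb. Per kb of all exons the 3 IRGM regulators lay between *Irf1* and *Stat2*, which had 9.94 CPM per kb. *Iigp1* lay above each signalling gene. The 4 GBPs lay below each of them other than *Irf8* with 0.746 CPM per kb and *Socs1*. *Gbp2*, *Gbp3* and *Gbp7* lay above both of these, and *Gbp6* with 0.444 CPM per kb lay between them.

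**Figure D5:**
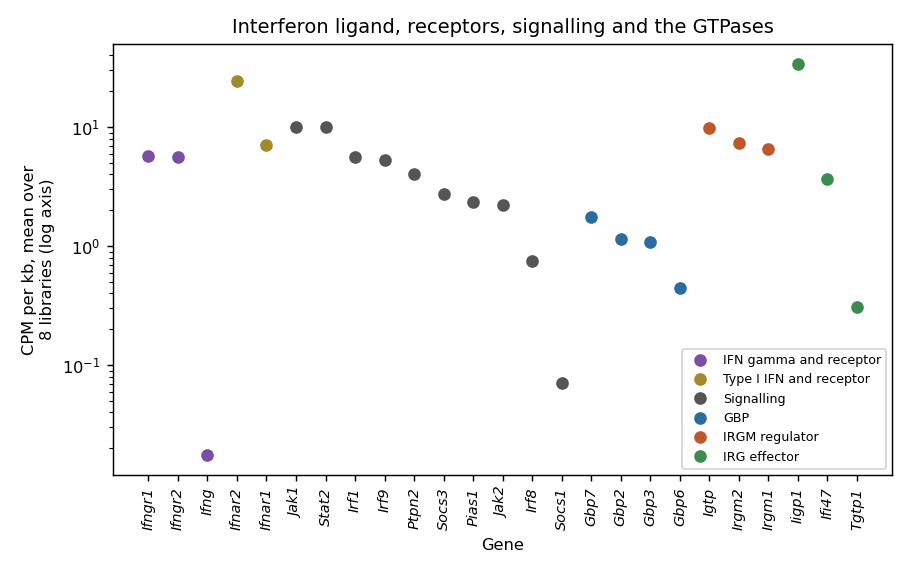
Level in CPM per kb (log y axis), as the mean over the 8 libraries, of interferon ligand and receptor genes, signalling genes and the 10 GTPases, coloured by group. *Ifnb1* is not drawn because it is at the lowest value. *Ifng* is lowest at 0.0174, its receptor chains lie at 5.77 and 5.65, and *Iigp1* is highest at 34.2.

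Among the 17 further GBPs and IRGs of the fixed lists found in the table, all had reads and 10 had an average log2 CPM of at least 0. Of all 27179 genes, 18937 had reads and 11711 had an average log2 CPM of at least 0. Of these 17 genes, 9 were lower per kb than *Tgtp1*, the lowest member. The other GBPs ran from *Gbp11* with 2.17 to *Gbp5* with 0.118 CPM per kb. *Irgq*, a member of the IRG family not known for induction by interferon, had 2.72 CPM per kb. The testis gene *Irgc1* had an estimated 0.125 reads per library, about 1 read over all 8 libraries, and *9930111J21Rik2*, the lowest of the IRG list per kb, had 0.125 as well.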

How the data were processed

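RNA from 4 wild-type and 4 V227A livers was sequenced as stranded poly-A, paired-end libraries. The authors used featureCounts on STAR alignments to GRCm38 for the counts per gene, after read trimming (Trimmomatic) and a quality report (FastQC), and edgeR for the average. Tool versions, the annotation, strand setting and treatment of reads with several matches are not given in the sources used here. The authors deposited 1 average log2 CPM value per gene over all libraries. Values of single libraries fill 0 columns of the table. The log2 fold change, F statistic, p-value and adjusted p-value in it are the authors' own comparison of the genotypes and were not used, so the planned test of the genotypes was not run.

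The lowest average log2 CPM was taken as 0 reads plus a prior count of 2. Estimated totals over all libraries lay within 0.1 of a whole number for 99.9% of the 2378 genes with 1 to 5 reads. The levels carry no error of their own. Exon lengths (GENCODE vM21, known for 94.8% of genes with reads) gave CPM per kb. Proteins were translated from GENCODE transcripts and aligned with Biopython 1.88 (BLOSUM62, gap penalties 11 and 1). Motif search and lengths were tested on simulated data. Plots used matplotlib 3.10.9, tables pandas 2.3.3 in Python 3.11.15. The members and gene lists were chosen with earlier results of these data known. The text names each member, the highest and lowest genes of each list, genes at the lowest value and copies over 90% identical. Other list genes, *Gm43302*, *Gm43802* and *Gm12185* were named after their values were seen. Of the listed names, *Iigp1b* matched no gene of the table. A gene of the signalling list is not reported here.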

Additional observations from a re-analysis of the deposited data

How the results depend on the processing

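Of 30 alternatives, 22 concerned levels and 8 motifs or protein identity. In 22 the value stayed within 1.5 times or within counting error, and in 8 it moved further. Most of the alternatives that moved changed the length. Without removal of the prior count, 1 alternative for each member, CPM stayed within counting error. That check could hardly move genes with this many reads, so it adds little to the count of values that stayed. All 10 members had an average log2 CPM of at least 0, as did 11711 of all 27179 genes, and *Tgtp1* passed narrowly with 0.08. The median percentile of the members was 61.4 among genes with reads and 37.5 among genes with an average log2 CPM of at least 0, since fewer low genes are then compared. It was 73.1 among all genes of the table and 55.1 among protein-coding genes. The range from the highest to the lowest member was 111-fold per exon length, 183-fold per longest transcript and 203-fold per coding length. Each of these ranges ends at the uncertain single value of *Tgtp1*. The median regulator over the median GBP, *Iigp1* over the other members and *Irgm1* over *Tgtp1* each rose with these lengths. The order turned for 3 and 4 of the 45 pairs with these lengths. The identity between GBPs and IRGs was 13.8% over alignment columns and 21.8% over the shorter protein. No paired analysis was possible because the table holds no values per library. For the same reason the block on replicate number, DESeq2, the filter on low counts and leaving out single mice were not run. The depth of each single library is unknown.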

Other observations

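Other large GTPases induced by interferon had unequal levels. *Mx2*, of the dynamin-like antiviral Mx proteins, had 1.49 CPM per kb and *Mx1* 0.289. *Gvin1*, which encodes a very large GTPase, had 0.0288 CPM per kb, and the pseudogene *Gvin-ps2* was at the lowest value. Per kb of exon *Mx2* lay below *Gbp7* and above *Gbp2*, *Gbp3* and *Gbp6*. *Gm8995*, with 0.340 CPM per kb, lay above *Tgtp1*, and *Mx1* lay below it.

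Genes whose products meet the GTPases on vacuoles and in autophagy were all expressed. Of these, 12 of 12 had an average log2 CPM of at least 0, against 11711 of all 27179 genes. The 12 ran from *Gabarapl1* with 319.9 to *Trim21*, a ubiquitin ligase, with 1.37 CPM per kb. *Atg5*, part of the conjugation machinery that GBPs and IRGs need to reach vacuoles, had 19.98 CPM per kb.

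Markers of other cells were present at unequal levels. B cell markers ran from *Cd79b* with 0.728 to *Ms4a1* with 0.0237 CPM per kb, and those of neutrophils from *S100a9* with 0.808 to *Ly6g* with 0.00488. Those of T and NK cells ran from *Nkg7* with 0.355 to *Cd8a* with 0.0249. Endothelial markers ran from *Clec4g* with 15.4 to *Kdr* with 1.27, stellate cell markers from *Dcn* with 17.1 to *Reln* with 0.963, and cholangiocyte markers from *Krt19* with 1.996 to *Krt7* with 0.176. Kupffer cell markers ended with *Adgre1* at 1.451 CPM per kb. Their part in the levels of the GTPases was not tested.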
